A study of Mus musculus with 4 samples.

Results

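The genes described here are the cytosolic ribosomal protein genes, which encode the protein parts of the ribosome that translates nuclear mRNAs. They were chosen by gene symbol alone, as the symbols Rpl or Rps followed by a number and the stalk genes Rplp0, Rplp1 and Rplp2, and 82 of the 32285 genes listed matched. Of these, 30 belong to the small subunit, 46 to the large subunit, and 6 are paralogs of other members (Rpl22l1, Rps27l, Rpl7l1, Rpl39l, Rpl3l and Rpl10l), which are named apart throughout. The data are droplet-based 5' single-cell RNA libraries of live thymic invariant natural killer T (iNKT) cells, T lymphocytes that recognise lipids on CD1d, sorted for CD3 and for binding of CD1d loaded with the lipid PBS57. The 2 groups are the inbred mouse strains BALB/c and B6, given by the labels with no further allele, treatment or age, with 2 libraries each, named by strain and number. Wherever 4 values stand in a row, they are those of BALB/c 1, BALB/c 2, B6 1, B6 2, in that order. The labels do not tie libraries to separate mice, so p-values speak for these libraries only, and their spread may be partly technical. Strain tests rest on the spread between libraries. Class tests rest on how differences between cell classes vary from library to library.

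Each cytosolic ribosome needs 1 copy of nearly every one of these proteins, and their genes are transcribed together with ribosomal RNA in growing cells. Many of their mRNAs begin with a C followed by a run of pyrimidines at the very 5' end (a TOP motif), through which the mTOR pathway and the protein LARP1 control their translation. In lymphocytes, ribosome production is known to rise with activation and division, and iNKT cells expand in the thymus at an early stage before they mature as iNKT1, iNKT2 or iNKT17 cells. Some ribosomal proteins also act outside the ribosome: Rpl5 and Rpl11 bind the p53 regulator Mdm2, Rps27l is a p53 target, and Rpl22 is required for the development of alpha-beta T cells.

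The starts of the mRNAs are shown first, for the members that carry the results below, because the pyrimidine run at the start is the feature most members are known to share. Each window runs from 35 bases before to 20 bases after and including the annotated start, 5' to 3' on the gene's strand, from RefSeq on GRCm38.p6, and capitals mark the longest run of C and T within 10 bases of the start. Rps27 chr3:90213629-90213683 (minus strand), Rps24 chr14:24490643-24490697 (plus strand) and Rpl38 chr11:114668545-114668599 (plus strand) are members that stood high in iNKT1-like cells. Rpl28 chr7:4792930-4792984 (plus strand) stood low there. Rps27l chr9:66946051-66946105 (plus strand) is the paralog that moved against Rps27, Rpl22l1 chr3:28805473-28805527 (plus strand) is the most abundant paralog, and Rps18 chr17:33955646-33955700 (minus strand) is the member with the largest strain difference.
Rps27: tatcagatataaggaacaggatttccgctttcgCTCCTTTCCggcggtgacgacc
Rps27l: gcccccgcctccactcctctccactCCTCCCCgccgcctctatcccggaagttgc
Rps24: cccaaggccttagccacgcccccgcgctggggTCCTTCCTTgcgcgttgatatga
Rpl38: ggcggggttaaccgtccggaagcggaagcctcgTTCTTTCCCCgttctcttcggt
Rpl28: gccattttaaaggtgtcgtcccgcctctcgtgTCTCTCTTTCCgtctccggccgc
Rpl22l1: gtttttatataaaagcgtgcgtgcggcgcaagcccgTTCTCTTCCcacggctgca
Rps18: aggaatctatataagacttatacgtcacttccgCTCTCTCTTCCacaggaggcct
The annotated first base is base 36 of each line. In Rps27, Rpl38, Rpl28 and Rps18 it was a C followed by at least 4 pyrimidines, and in Rps27l, Rps24 and Rpl22l1 it was not. Promoter entries existed for 62 of the 82 members. Such an exact start (a C at the annotated first base and C or T at each of the next 4, read on the gene's strand only) was found in 12 of 56 members other than paralogs (21.4%), against 2.49% of all 27025 genes with an entry, and in 0 of 6 paralogs. A run of at least 7 pyrimidines within 10 bases of the start was found in 22 of the 56 (39.3%), in 3 of the 6 paralogs and in 12.2% of all genes. These counts describe the annotated letters, and an annotated start a few bases from the true one changes the exact count.

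After filtering, 1864, 1913, 2328 and 8790 cells were kept, with medians of 11004, 9131, 7016 and 6922 unique molecular identifiers (UMIs, counts of distinct tagged molecules) per cell. Cells were clustered without ribosomal genes and classes were named from marker genes: iNKT1-like (280, 606, 1328 and 2823 cells), iNKT2-like (871, 685, 172 and 1111), iNKT17-like (320, 183, 66 and 151), early iNKT0-like (90, 131, 86 and 188) and dividing cells (49, 47, 61 and 153). The summed level of 17 iNKT1 markers was 8717 to 10311 CPM (UMIs scaled to 1 common total for each library) in iNKT1-like cells and 141 to 673 in iNKT2-like cells. The 12 iNKT2 markers set classes less apart, at 2631 to 3318 CPM in iNKT2-like and 537 to 643 in iNKT1-like cells. They summed to 1776 to 2348 in dividing, 1688 to 2206 in iNKT0-like and 1314 to 2168 in iNKT17-like cells. As classes were named from these lists, such levels describe the classes and do not test them. No class was given to 12.6, 10.6, 15.4 and 40.4% of kept cells, so 40.4% of B6 2 is outside the class comparisons; its unnamed clusters 0, 7 and 10 hold 1791, 774 and 662 of its cells, with ribosomal protein shares of 27.3, 3.60 and 26.6%. Double-positive thymocyte-like cells (109 and 218) were named in the B6 libraries only. Cluster 14, of 90, 162, 7 and 1 cells, also scored highest for double-positive thymocyte markers (mean log2 fold 2.47). It was left unnamed for its few UMIs, so such cells are not shown to be absent from BALB/c. The B6 2 library stands apart: it holds the most cells, its header names another Cell Ranger version, and genes with the longest introns took 6.66% of its UMIs against 3.74 to 3.96% in the other 3. Pairs of libraries shared 4 to 29 cell barcodes.

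Cytosolic ribosomal protein transcripts made up 30.3, 29.8, 28.4 and 25.3% of all UMIs of kept cells. Of the 100 genes with the highest mean level, 68 were members, and 78 of the 82 exceeded 100 CPM on average over libraries. A UMI counts a molecule once whatever its length, so gene levels are given without division by length. The highest were Rps24, a small subunit protein linked to Diamond-Blackfan anaemia, at 29.6 per 1000 ribosomal protein UMIs (mean of libraries), the large subunit genes Rpl13 (25.6) and Rpl41 (23.97), and the stalk gene Rplp0 (23.6). Rpl31 and Rps25 were among the lowest of the 76 members other than paralogs, at 3.05 and 3.13 per 1000. The paralogs were lower. Rpl22l1 averaged 783 CPM, Rps27l 205 and Rpl7l1, a factor of large subunit assembly, 72.7. The paralogs known from testis or muscle were nearly silent: Rpl39l had 6, 16, 14 and 88 UMIs, the muscle paralog Rpl3l had 1, 1, 0 and 0, and Rpl10l had 0 in every library. These 3 dropped out of the class tests as too low, and 79 were tested; Rpl39l entered 2 of the strain tests. The members lie on 19 chromosomes, 4 of them on the X, and 29 of them hold 55 small nucleolar RNA genes within their bounds.

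The first comparison asked how much of the messenger pool the members took in each class. In iNKT2-like cells, the subset known for Il4, they made up 33.4, 33.1, 30.4 and 27.5% of UMIs, in iNKT1-like cells 28.7, 29.3, 30.8 and 25.7%, and in iNKT17-like cells 27.3, 27.8, 28.8 and 24.9%. In early iNKT0-like cells the values were 23.04, 23.1, 21.1 and 20.3%, and in dividing cells 23.6, 24.6, 23.2 and 20.9%. The iNKT2-like share was above the iNKT17-like, iNKT0-like and dividing shares in all 4 libraries, and above the iNKT1-like share in 3, with B6 1 the other way by 0.382 percentage points. That 1 difference turned to -0.381 as a median over cells, -0.404 with classes from cell scores and -1.47 with cells of at least 5 proliferation marker UMIs counted as dividing. In these settings iNKT1-like cells were lower in 4 of 4 libraries (exact p = 0.13). It did not turn in B6 1 with predicted doublets kept (30.7% in iNKT1-like against 30.5% in iNKT2-like cells). Nor did it turn there without mitochondrial genes and Malat1 (31.5% against 31.03%). The means were 31.1 ± 2.74% for iNKT2-like cells (SD, n = 4), 28.6 ± 2.13% for iNKT1-like, 27.2 ± 1.69% for iNKT17-like, 21.9 ± 1.42% for iNKT0-like and 23.1 ± 1.54% for dividing cells. Within libraries, the mean difference from iNKT2-like cells was -2.49 points for iNKT1-like cells (exact two-sided sign-flip p = 0.25), -3.88 for iNKT17-like, -9.21 for iNKT0-like and -8.02 for dividing cells (exact p = 0.13 each, the smallest that 4 libraries allow). iNKT17-like cells differed from iNKT1-like cells by -1.39 points in the mean, lower in 4 of 4 libraries (exact p = 0.13). Adjusted over these 5 comparisons, p was 0.25 for the first and 0.156 for the others, so none passed 0.05.

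Share and amount went apart in dividing cells. They held the most ribosomal protein UMIs per cell, 7508, 8861, 7036 and 5525, against 5286, 5536, 5933 and 4724 in iNKT2-like cells, 3103, 3471, 3707 and 2959.8 in iNKT17-like cells, 1850.3, 2016, 2296 and 1878 in iNKT1-like cells and 1852, 1645, 1389 and 1717 in iNKT0-like cells. Per cell, dividing cells thus had 1.17 to 1.60 times as many ribosomal protein UMIs as iNKT2-like cells of the same library, and 1.68 to 2.43 times as many UMIs of all other genes. iNKT1-like cells had 0.35 to 0.40 times the ribosomal protein UMIs of iNKT2-like cells. Each of these differences had the same sign in 4 of 4 libraries (exact p = 0.13). UMIs per cell follow both the RNA of a cell and its capture, and these were not told apart. When cells were thinned to 2000 UMIs, a median of 74 or 75 of the 76 members other than paralogs was detected per iNKT1-like, iNKT2-like, iNKT17-like or dividing cell, and 70.5 to 72 per iNKT0-like cell; without thinning the medians were 76 and 75 to 76. Between 0 and 29 cells per class and library were too shallow for this and were left out.

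**Figure D1:**
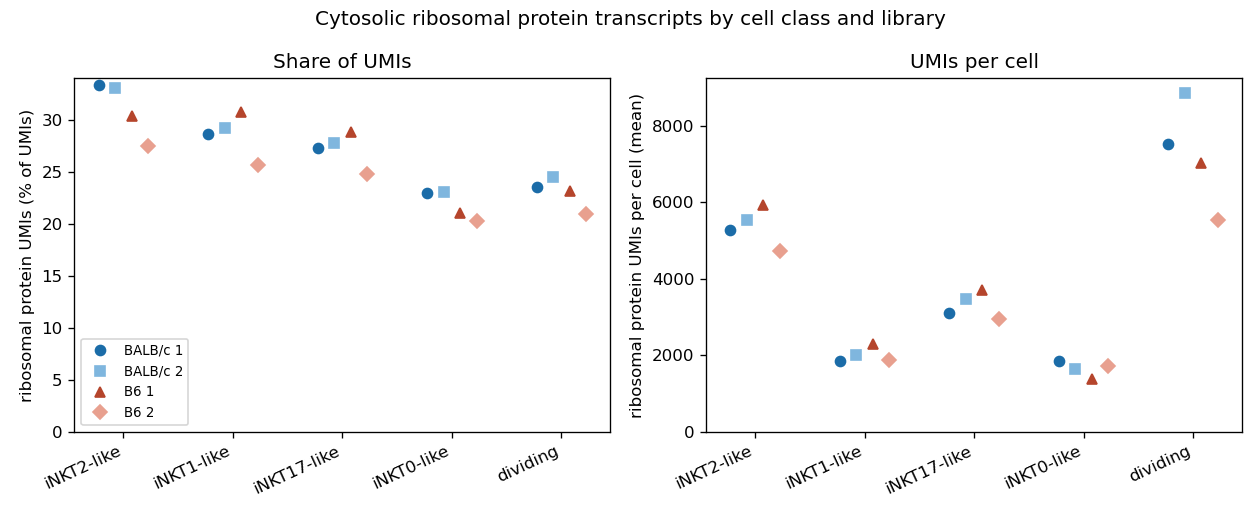
Ribosomal protein share of UMIs (left, percent) and mean ribosomal protein UMIs per cell (right) for 5 cell classes, 1 point per library. Dividing cells had the most ribosomal protein UMIs per cell but a share of 20.9 to 24.6%, below the iNKT2-like share of the same library in all 4.

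Within iNKT2-like cells, 2 clusters made from genes other than ribosomal ones differed in share. In cluster 1, which held most BALB/c cells of the class, the share was 33.6, 33.4, 33.9 and 33.1% (849, 663, 58 and 34 cells), and in cluster 5, which held most B6 cells, it was 26.9, 27.9, 29.04 and 27.4% (22, 22, 114 and 1077 cells). The 2 clusters did not overlap, and within each the strains did overlap. The early class was mixed as well. Single iNKT0-like cells had a median share of 16.4, 15.9, 14.5 and 14.6%, well under the share of their summed UMIs, and the middle 80% of cells ran from 9.06 to 10.1% at the low end to 25.4 to 29.7% at the high end. These cells carried 9 markers of double-positive thymocytes at a summed 616 to 1182 CPM, against 47.03 to 117 in iNKT2-like cells. In the double-positive thymocyte-like cells of B6, where those markers summed to 13950.1 to 15758 CPM, ribosomal proteins took 14.2% and 11.4% of UMIs. Without iNKT0-like cells that held a UMI of Rag1, Rag2, Ptcra, Dntt or Arpp21, the mean difference from iNKT2-like cells was -8.68 points. A further 3 clusters with under 5% ribosomal protein UMIs held 130, 15, 240 and 871 cells, with a median of 4.43 to 6.77% mitochondrial UMIs, and belong to no named class.

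Genes were then compared on UMIs summed per class and library, with edgeR's quasi-likelihood test, the library as a block and Benjamini-Hochberg adjustment over 10556 genes; differences are log2, of CPM scaled by the trimmed mean of M values (TMM). All classes entered the same fit and shared the same estimate of the spread, taken after the library differences were removed. Between iNKT1-like and iNKT2-like cells, 6 of 79 tested members rose and 36 fell in iNKT1-like cells. Over all genes, 28.4% were called higher and 26.8% lower, so fewer members were higher and more were lower than among all genes. The median member differed by -0.11 and the median gene by 0.02. Both subunits took part: 4 of 30 small subunit genes rose and 11 fell, and 2 of 46 large subunit genes rose and 23 fell.

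The members that rose in iNKT1-like cells were led by Rps27, a zinc-binding small subunit protein. It stood at 5571, 5757, 4754 and 2518 CPM in iNKT1-like cells and 4311, 4355, 3004 and 1704 in iNKT2-like cells (log2 difference 0.50, SE 0.06, adjusted p = 3.55e-07). It was higher in iNKT1-like cells of every library, although the classes overlap across libraries, since B6 2 was low in both. Rps24 stood at 10699.9, 11199, 12121 and 9140.0 CPM against 10085, 10009.5, 7937 and 6621 (log2 difference 0.33, SE 0.07, adjusted p = 0.000436). The step was small in BALB/c and larger in B6. Rps21 rose by 0.31, Rpl38, a large subunit protein known for its part in Hox translation, by 0.29, Rps16 by 0.19 and Rpl37a by 0.18. Rps24 and Rps27 were thus up in iNKT1-like cells while most members were not.

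The members that fell in iNKT1-like cells included Rpl28, at 3705, 3958, 3680.4 and 3060.2 CPM against 6673, 6778, 5480.2 and 4899.7 in iNKT2-like cells (log2 difference -0.72, SE 0.05, adjusted p = 1.71e-09). The 2 classes did not overlap. Rps26, which lies at the messenger exit channel and is a Diamond-Blackfan gene, stood at 4545, 4816, 4796 and 3013 against 7202, 7377, 6770.2 and 4482 CPM (log2 difference -0.59, SE 0.05, adjusted p = 2.75e-08). It was lower in iNKT1-like cells of each library. Rpl31 changed by -0.59 and Rpl15 by -0.49, both also Diamond-Blackfan genes. The stalk base Rplp0 changed by -0.47, whereas its partners Rplp1 (0.05) and Rplp2 (-0.08) were not called. Rpl3, at the catalytic centre, fell by 0.30, the S6 kinase substrate Rps6 by 0.40, and the Mdm2-binding Rpl11 and Rpl5 by 0.24 and 0.19. Rps19, Rpl10, Rpl39 and Rps4x were not called (adjusted p = 0.141, 0.107, 0.883 and 0.662).

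To see which members depart from the rest, the same test was run with the summed ribosomal protein UMIs as library size, which takes the level of the whole group out. Between iNKT1-like and iNKT2-like cells, 23 of 79 members were then called higher and 28 lower (background 32.2% and 21.1% of all genes on that scale, whose median over all genes is 0.10). Higher within the group were Rps27 (0.59), Rps24 (0.42), Rps21 (0.40), Rpl38 (0.38) and Rps16 (0.27). Lower were Rpl28 (-0.63), Rps26 (-0.50), Rplp0 (-0.38), Rpl15 (-0.41) and Rpl31 (-0.50). Small subunit genes took 45.1, 44.97, 44.6 and 44.5% of ribosomal protein UMIs in iNKT1-like cells and 43.7, 43.5, 43.2 and 43.1% in iNKT2-like cells. This is a shift of 1.40 points, with the same sign in 4 of 4 libraries (exact two-sided p = 0.13, adjusted over 5 comparisons 0.208). In iNKT17-like cells the small subunit share was 43.8, 43.6, 43.2 and 43.02%, in iNKT0-like cells 42.3, 42.7, 42.9 and 42.6% and in dividing cells 43.3, 42.9, 43.3 and 43.3%.

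**Figure D2:**
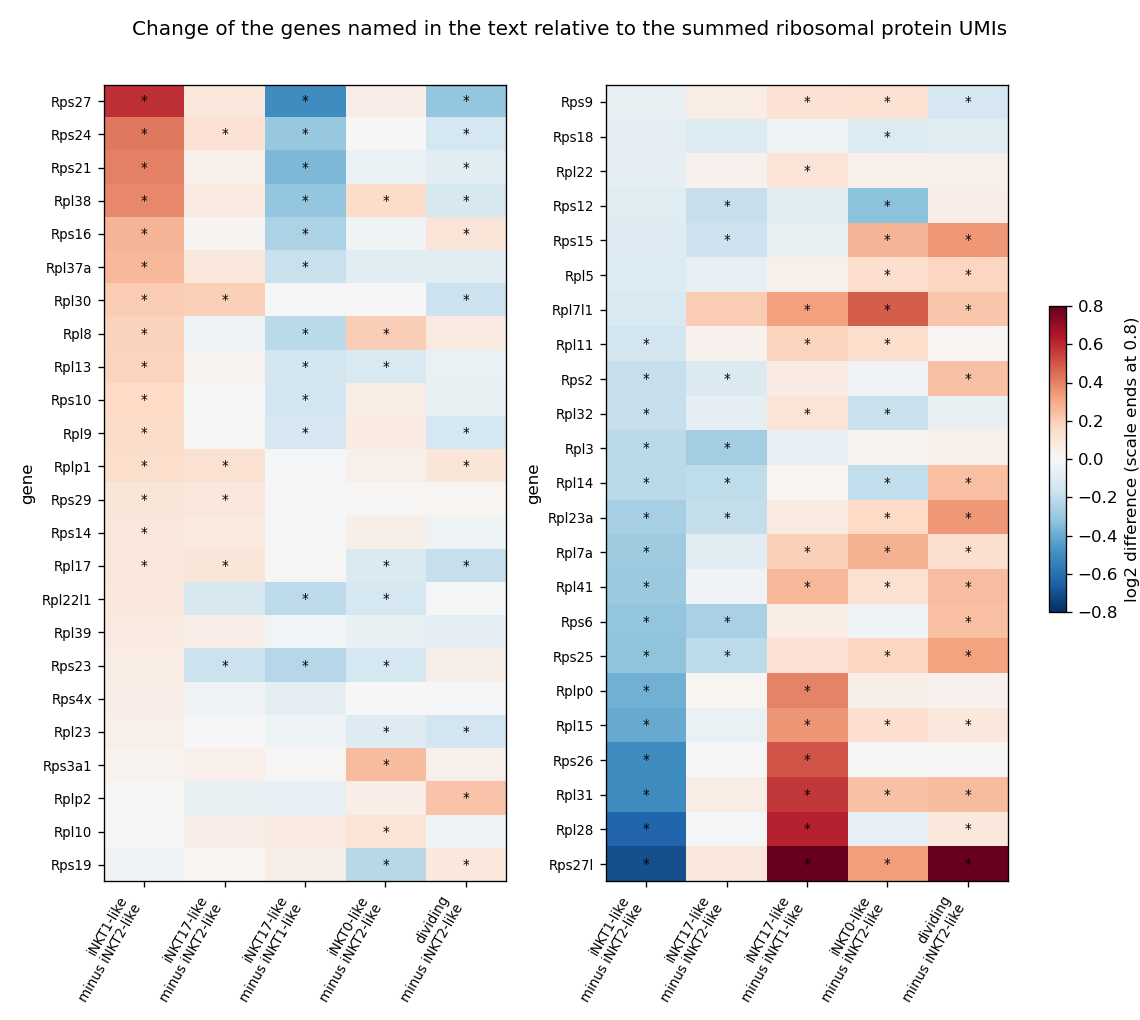
Log2 difference of the 47 tested members named in the text, relative to the summed ribosomal protein UMIs in 5 class comparisons, ordered by the first; red is higher in the class named first, blue lower, and an asterisk marks an adjusted p under 0.05 (edgeR). Rps27 opens the list at 0.59 and Rps27l closes it at -0.70; the comparisons share class sums, so columns are not independent.

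Rps27l, the p53-responsive paralog of Rps27, stood opposite to it in iNKT1-like and in dividing cells. It stood at 152, 159.8, 154 and 133 CPM in iNKT1-like cells and 257, 276, 267 and 235 in iNKT2-like cells (log2 difference -0.79, SE 0.09, adjusted p = 3.88e-07), with no overlap. In dividing cells it stood at 363, 416, 323 and 289.6 (log2 difference 0.42, SE 0.09, adjusted p = 0.000658 against iNKT2-like cells), the only member that rose there. Rps27 fell in dividing cells, to 2266, 2529, 1790.3 and 991 CPM (log2 difference -0.81, SE 0.06, adjusted p = 4.35e-10). In iNKT17-like cells Rps27l rose against iNKT1-like cells by 0.60 and Rps27 fell by 0.69. As a ratio, iNKT1-like cells held 2.72, 2.78, 3.25 and 5.29 Rps27l UMIs per 100 of Rps27, iNKT2-like cells 5.97, 6.33, 8.87 and 13.8, iNKT17-like cells 6.09, 6.61, 8.80 and 13.3, iNKT0-like cells 9.83, 7.33, 8.55 and 16.2 and dividing cells 16.04, 16.5, 18.03 and 29.2. In each library the ratio was lowest in iNKT1-like and highest in dividing cells. The mean log2 ratio differed by -1.29 between iNKT1-like and iNKT2-like cells and by 1.23 between dividing and iNKT2-like cells, each with 1 sign in 4 of 4 libraries (exact p = 0.13). B6 2 had the highest ratio in every class, and the lowest Rps27 level. Between iNKT17-like and iNKT2-like cells the ratio differed by 0.01 only. A retrocopy, Rps27rt, was listed at 36.4 to 104 CPM, so reads of near-identical copies may be split, and Rps27 levels are uncertain to that extent.

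**Figure D3:**
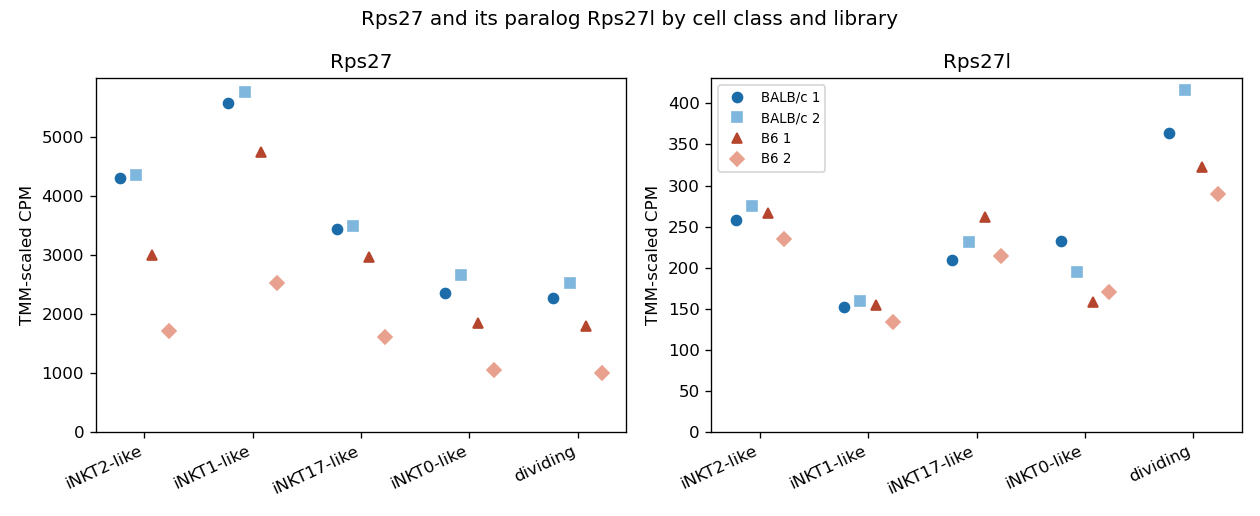
TMM-scaled CPM of Rps27 (left) and Rps27l (right) in 5 cell classes, 1 point per library. Rps27 was highest and Rps27l lowest in iNKT1-like cells of each library, and Rps27l was highest in dividing cells.

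The other abundant paralog, Rpl22l1, changed less against its partner Rpl22. Between iNKT1-like and iNKT2-like cells Rpl22 fell by 0.16 and Rpl22l1 differed by -0.01 (adjusted p = 0.944). Both fell in iNKT17-like cells against iNKT2-like cells, by 0.24 and 0.41, and in iNKT0-like cells, by 0.75 and 0.94, but relative to the summed group Rpl22 differed by 0.03 and 0.04. There were 38.9, 37.9, 34.98 and 40.3 Rpl22l1 UMIs per 100 of Rpl22 in iNKT1-like cells, 35.7, 36.05, 31.4 and 33.5 in iNKT2-like and 30.98, 31.03, 29.1 and 31.00 in iNKT17-like cells. The ratio was thus highest in iNKT1-like cells of each library among these 3 classes (exact p = 0.13 for each pair). Rpl7l1 was low in all classes (74.6, 80.6, 87.9 and 88.9 CPM in iNKT2-like cells). It fell by 0.20 in iNKT1-like cells, by 0.30 in iNKT0-like cells and by 0.28 in dividing cells against iNKT2-like cells.

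In iNKT17-like cells, 71 of 79 members fell against iNKT2-like cells and 0 rose (background 16.0% of genes lower and 16.2% higher), with a median of -0.27. Rpl3 stood at 2178, 2275, 2498 and 2287 CPM in iNKT17-like cells and 3517, 3558, 3304 and 3178 in iNKT2-like cells (log2 difference -0.56, SE 0.07, adjusted p = 3.17e-06), without overlap. Rps6 stood at 1259, 1345, 1555 and 1611 CPM against 2029, 2029, 2094 and 2161 (log2 difference -0.53, SE 0.07, adjusted p = 2.65e-06), again without overlap. Rpl23a, at the exit tunnel, changed by -0.47, Rps15 by -0.44, Rps25 by -0.49 and Rps2 by -0.39. Relative to the summed group, departures were few: 8 members were called higher and 13 lower (background 40.7% and 6.36%; median over all genes 0.29), and without B6 2 a total of 10 were called. Lower were Rpl3 (-0.28), Rps6 (-0.26), Rps23 (-0.17), Rpl14 (-0.20) and Rps25 (-0.21), and higher were Rpl30 (0.19), Rps24 (0.12), Rplp1 (0.12) and Rpl17 (0.10).

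Against iNKT1-like cells, 7 members rose and 44 fell in iNKT17-like cells (background 20.2% higher and 20.1% lower; median member -0.20). Those that rose beside Rps27l included Rpl28 (log2 difference 0.43, SE 0.05, adjusted p = 2.09e-06), Rpl31 (0.37), Rps26 (0.32), Rplp0 (0.21) and Rpl15 (0.17). Those that fell with the lowest p were Rps27, Rps21 (-0.55), Rpl38 (-0.49), Rps16 (-0.44) and Rpl8 (-0.40). Relative to the group, 26 were higher and 20 lower (background 32.2% and 11.2%; median over all genes 0.20). Rpl28 (0.62), Rps26 (0.50), Rplp0 (0.40), Rpl31 (0.56) and Rpl15 (0.35) were higher, and Rps27 (-0.50), Rps21 (-0.36), Rps24 (-0.30), Rpl38 (-0.31) and Rps16 (-0.25) lower. This comparison and that of iNKT1-like with iNKT2-like cells share the iNKT1-like sums.

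In early iNKT0-like cells, which express Cd24a and Egr2, all 79 tested members fell against iNKT2-like cells on the TMM scale and 0 rose (background 19.2% lower and 16.2% higher). The median was -0.78, with a range of -1.13 to -0.30. Rps12 stood at 2301, 2307, 2025 and 2209 CPM in iNKT0-like cells and 5645, 5582, 4210.3 and 4052 in iNKT2-like cells (log2 difference -1.13, SE 0.07, adjusted p = 4.79e-10). Rps2 stood at 2931, 2977, 3393 and 3003 CPM against 5271, 5609, 5908 and 5019 (log2 difference -0.83, SE 0.05, adjusted p = 2.08e-10). In neither gene did the classes overlap. Rps19, the gene most often mutated in Diamond-Blackfan anaemia, changed by -1.02, Rpl17 by -0.91 and Rpl28 by -0.86. Relative to the group, 25 members were higher and 19 lower (background 72.7% and 4.01%, on a scale whose median over all genes is 0.78). Rps3a1 (0.26), Rpl7a (0.28), Rpl8 (0.19) and Rps15 (0.27) were higher, and Rps12 (-0.33), Rps19 (-0.22), Rpl32 (-0.18) and Rpl14 (-0.20) lower. The double-positive thymocyte markers given above moved with this class, and their part in these values was not tested.

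In dividing cells, named from Mki67, Top2a and other proliferation genes, 77 members fell against iNKT2-like cells and 1 rose (background 22.1% lower and 22.2% higher), with a median of -0.50. The one that rose was Rps27l. Rpl17 stood at 2492, 2856, 2565 and 2397 CPM in dividing cells and 4323, 4409, 3925 and 3904 in iNKT2-like cells (log2 difference -0.69, SE 0.06, adjusted p = 5.45e-09), without overlap. Rps9 changed by -0.63, Rps10 by -0.56 and Rpl38 by -0.63. Relative to the group, 21 were higher and 17 lower (background 54.7% and 3.37%; median over all genes 0.45). Higher beside Rps27l (0.91) were Rpl41, the shortest member (0.24), Rps15 (0.35) and Rpl23a (0.34). Lower were Rps27 (-0.31), Rpl17 (-0.19), Rpl30 (-0.17), Rpl9 (-0.14) and Rpl23 (-0.15). Of the stalk proteins, Rplp2 was higher within the group by 0.23 and Rplp1 by 0.10, and Rplp0 was not called (0.04). CPM are shares of the mRNA pool, and per cell the members were more numerous in dividing cells, as given above.

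Other genes of the pathway were counted on the same TMM scale, against iNKT2-like cells. Over all genes, 28.4% were higher and 26.8% lower in iNKT1-like cells, and 16.2% and 16% in iNKT17-like cells. In iNKT0-like cells the background was 16.2% and 19.2%, and in dividing cells 22.2% and 22.1%. The 5 ribosomal proteins outside the symbol pattern (among them Fau, Rpsa and Rack1) behaved unevenly in iNKT1-like against iNKT2-like cells: 1 rose and 3 fell, with Fau, the source of the small subunit protein eS30, at 0.29 and Rack1 at -0.23. All 5 fell in iNKT0-like cells (Rpsa by 0.93) and in dividing cells (Fau by 0.55). Of 30 ribosome biogenesis genes, 0 rose and 21 fell in iNKT1-like and 0 rose and 19 fell in iNKT17-like cells against iNKT2-like cells, with medians of -0.37 and -0.43. The small nucleolar RNA-binding protein Nop58 changed by -0.72 and -0.53, and the nucleolar chaperone Npm1 by -0.57 and -0.59. In iNKT0-like cells 0 rose and 13 fell. In dividing cells 5 of the 30 rose and 7 fell, near the background of 22.2% and 22.1%. Among them were Ncl at 0.34 and Nob1, a nuclease of small subunit maturation, at -0.57. Of 15 translation factors and other TOP mRNAs, 3 rose and 11 fell in iNKT1-like, 0 rose and 12 fell in iNKT17-like, 0 rose and 14 fell in iNKT0-like and 1 rose and 13 fell in dividing cells against iNKT2-like cells. The elongation factor Eef1a1 changed by -0.70 and -0.60 in the last 2.

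The 78 mitochondrial ribosomal protein genes, which serve the other ribosome of the cell, were called in both directions in dividing cells, where 28 rose and 6 fell (background 22.2% and 22.1%), with a median of 0.11. Mrpl18 rose by 0.84 and Mrpl51 by 0.85. Against iNKT2-like cells, 1 rose and 47 fell in iNKT1-like cells (Mrpl54 by 0.88; background 28.4% higher and 26.8% lower). In iNKT17-like cells 3 rose and 16 fell (background 16.2% and 16.0%), and in iNKT0-like cells 4 rose and 18 fell (16.2% and 19.2%). The shares that fell in these last 2 classes were near the background. Of 15 regulators of ribosome production and growth, 5 rose and 3 fell in iNKT1-like, 3 rose and 3 fell in iNKT17-like, 1 rose and 5 fell in iNKT0-like and 3 rose and 6 fell in dividing cells. In iNKT1-like and iNKT17-like cells these shares lie near the background (28.4% and 26.8%, and 16.2% and 16.0%). For iNKT0-like and dividing cells the background was 16.2% and 19.2%, and 22.2% and 22.1%. Myc, a driver of ribosome production, stood at 45.6, 52.00, 54.3 and 52.3 CPM in iNKT17-like cells and 197, 172, 157 and 147 in iNKT2-like cells (log2 difference -1.75, SE 0.13, adjusted p = 4.15e-09). Its relative Mycn stood at 40.7, 32.4, 40.7 and 25.4 against 0.394, 0.482, 0.955 and 0.513 CPM (adjusted p = 1.44e-09 by edgeR). In each library the 2 genes were thus on opposite sides. The Myc antagonist Mxd4 rose by 0.88 in iNKT1-like cells and fell by 2.27 in dividing cells. Of 7 tested p53 targets beside Rps27l, 2 rose and 4 fell in iNKT1-like cells (background 28.4% and 26.8%). Among them were Phlda3 at -2.25 and Ccng1 at -1.14 but Sesn1 at 0.96. In dividing cells 1 rose and 4 fell (background 22.2% and 22.1%), and Trp53inp1 changed by -1.27.

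The strains were compared next. Over all kept cells the ribosomal protein share was 30.03% ± 0.312 (SD, n = 2) for BALB/c against 26.8% ± 2.23 (SD, n = 2) for B6, a difference of 3.19 points without overlap (exact two-sided permutation p = 0.33, the smallest that 2 against 2 libraries allow). The strains differed in class make-up: iNKT2-like cells made up 46.7, 35.8, 7.39 and 12.6% of kept cells. The part of class make-up in differences over all kept cells was not tested. Within classes the difference in share was 4.27 points in iNKT2-like, 2.39 in iNKT0-like and 1.99 in dividing cells, each without overlap (exact p = 0.33). It was 0.726 in iNKT1-like and 0.715 in iNKT17-like cells, where B6 1 was above and B6 2 below both BALB/c libraries (exact p = 1). Without B6 2 the strain difference was 1.61 points over all kept cells, 2.83 in iNKT2-like and 0.845 in dividing cells, and it turned to -1.81 in iNKT1-like and -1.27 in iNKT17-like cells. The iNKT2-like class of the 2 strains was made mostly of different clusters, 1 in BALB/c and 5 in B6, but 58 of the 172 B6 1 cells were in cluster 1. The iNKT1-like class was made mostly of cluster 6 in BALB/c and of clusters 2, 3 and 4 in B6. Within cluster 1 and within cluster 5, whose shares are given above, the strains overlapped. The gap between iNKT1-like and iNKT2-like shares averaged -4.26 points in BALB/c and -0.713 in B6 (exact two-sided permutation p = 0.33). Proliferation markers summed to 317, 358, 709 and 668 CPM in iNKT2-like cells, higher in B6, and with cells of at least 5 such UMIs counted as dividing the gaps were -4.90 and -2.32 (exact p = 0.33). The other 4 class gaps had an exact p of 0.33 or 1.

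Rps18, a small subunit protein, had by far the largest strain difference of the members. It stood at 495, 569.8, 3328 and 3313 CPM over all kept cells (log2 difference -2.64, SE 0.10, adjusted p = 0.00678). The BALB/c libraries lay below the B6 libraries in every class: at 452, 539, 3679 and 3317 CPM in iNKT1-like, 573, 670.2, 3733 and 3532 in iNKT2-like and 407, 499.8, 3514 and 3071 in iNKT17-like cells (log2 differences -2.82, -2.55 and -2.86, adjusted p = 0.000293, 0.00127 and 8.41e-05 by edgeR). The gene lies on chromosome 17 from 33951999 to 33956001 (GRCm38, minus strand), in the H2 complex, where the 2 strains are known to carry different haplotypes. The build used for mapping derives from B6, and the part of mapping in the difference was not tested. Its window shown above is the reference sequence.

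Beside Rps18, few members were called between strains. Over all kept cells, 2 of 80 tested members were higher in BALB/c and 1 lower (background 3.64% higher and 3.63% lower). The 2 were Rpl28, at 5437, 5295, 3777 and 3524 CPM (log2 difference 0.56, SE 0.08, adjusted p = 0.034), and Rplp0, at 7848, 7724, 5928 and 5489 CPM (log2 difference 0.45, SE 0.08, adjusted p = 0.0481). Both also stood higher in iNKT2-like than in iNKT1-like cells, and the strains differed in class make-up, as given above. Within classes neither was called: the differences of Rpl28 and Rplp0 were 0.38 and 0.39 in iNKT2-like cells (adjusted p = 0.0816 and 0.0758), 0.20 and 0.15 in iNKT1-like cells (0.634 and 0.745), and 0.11 and 0.16 in iNKT17-like cells (0.783 and 0.68). In iNKT1-like cells 0 members were higher and 1 lower (background 2.1% and 1.66%), and in iNKT17-like cells also 0 and 1 (2.23% and 2.1%). In iNKT2-like cells Rps14, at 3770.2, 3724, 2625 and 2710.5 CPM (log2 difference 0.49, SE 0.09, adjusted p = 0.0322), and Rps12, at 5342, 5272, 3954 and 3837 CPM (log2 difference 0.45, SE 0.09, adjusted p = 0.0415), were higher and 1 was lower (background 4.58% and 5.89%). Relative to the summed group, the members called were 1 over all kept cells (background 5.05%), 2 in iNKT1-like cells (3.11%), 5 in iNKT2-like cells (15.6%) and 1 in iNKT17-like cells (2.33%). They included Rps18 each time, and Rps27 in iNKT1-like cells (0.62). In the TMM-scaled strain fit of that class, Rps27 stood at 5201, 5306, 4390 and 2309 CPM. It was lowest in B6 2, where short members were low, as given below.

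These counts rested on single libraries, and in iNKT1-like and iNKT17-like cells so did their direction. With B6 1 or B6 2 left out, more members were called higher in BALB/c over all kept cells and in iNKT2-like cells. With a BALB/c library left out, fewer were called there. Rps18 was then not called over all kept cells, nor in iNKT1-like cells without BALB/c 2. In iNKT1-like and iNKT17-like cells, most called members were higher in BALB/c without B6 1 and lower without B6 2. The ribosomal protein share was 28.7, 29.3, 30.8 and 25.7% in iNKT1-like cells and 27.3, 27.8, 28.8 and 24.9% in iNKT17-like cells. In these fits the lone library of a strain is assumed to vary like the 2 of the other. The share of all genes called in them is not given, so their counts are left out.

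The step from iNKT2-like to iNKT1-like cells was itself compared between strains, by an interaction term over 8 class sums, a test added after the data were seen. It was lower in BALB/c than in B6 for 44 of 80 tested members and higher for 0 (background 4.03% lower and 4.94% higher). Of the members that rose in iNKT1-like cells, Rps24, whose values are given above, had the largest such difference (log2 difference -0.40, SE 0.06, adjusted p = 7.08e-05). Rps21 stood at 5766, 5900.0, 5275 and 2526 CPM in iNKT1-like and 5138, 5138, 3748 and 1921 in iNKT2-like cells (log2 difference -0.24, SE 0.06, adjusted p = 0.00822), a step that was larger in B6 1 and B6 2 than in either BALB/c library. Relative to the summed group, 8 members differed upwards and 7 downwards (background 12.2% and 2.12%). Rps24 was among them (-0.18, adjusted p = 7.08e-05), and Rps21 was not (-0.03, adjusted p = 0.759). The clusters that make up the iNKT2-like class were mixed differently in the strains and differed in ribosomal protein share, as given above. Their part in this was not tested.

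**Figure D4:**
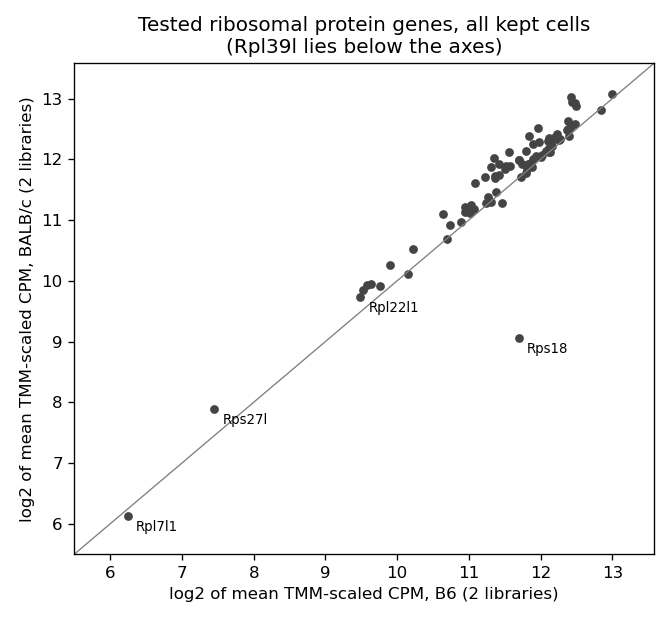
Log2 of the mean TMM-scaled CPM in BALB/c (vertical) against B6 (horizontal) over all kept cells, 1 point per tested member; the line marks equal levels. Rps18 lies far below the line (fitted log2 difference -2.64), and Rpl39l falls outside the axes.

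The difference between the B6 libraries went with the length of the coding sequence. For the 9 members other than paralogs with a coding length under 300 bases, the log2 ratio of B6 2 to B6 1 ran from -1.19 to -0.39, with a median of -0.74. For the other 67 the median was -0.07. Rpl38 had a ratio of -1.19, Rps29 of -0.97, Rps21 of -0.88 and Rps27 of -0.74. Over 76 members, which share both libraries, Spearman's rho of the ratio with coding length was 0.65, given as a description. Between the BALB/c libraries the medians were -0.0039 and -0.03, and rho was -0.09. Short members such as Rps27, Rps21 and Rpl38 were lower in B6 2 than in the other libraries, while the step of Rps27 from iNKT2-like to iNKT1-like cells had the same sign in all 4. The part of library preparation or of the Cell Ranger version in this was not tested.

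**Figure D5:**
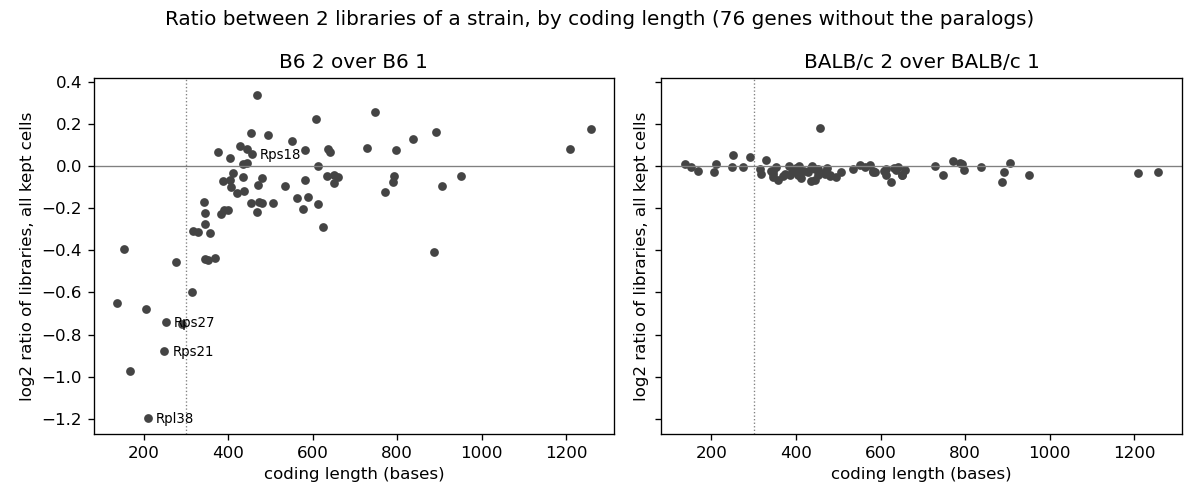
Log2 ratio of the levels in 2 libraries of a strain against coding length (bases) for 76 members, B6 on the left and BALB/c on the right; the dotted line marks 300 bases. Short members are low in B6 2, with Rpl38 at -1.19, and the BALB/c libraries show no such trend.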

How the data were processed

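The authors deposited UMI counts per gene and cell barcode for each library: whole numbers, not normalized. Per the submitters' processing notes, Cell Ranger 7.1.0 and build mm10 were used; per the file headers, 3 libraries carry Cell Ranger 6.0.0 and B6 2 carries 7.1.0. Whether introns were counted is not given there.

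Barcodes were kept from 500 genes and 1000 UMIs upwards and with at most 10% of UMIs mitochondrial, and the top Scrublet scores were removed (0.8% per 1000 barcodes). Cells were clustered with scanpy 1.11.5 (2000 variable genes, 30 components, 15 neighbours, Leiden resolution 1) without ribosomal genes. Clusters were named where markers averaged a log2 fold of at least 0.3 and 40% of them were raised, so classes may differ from the study's. Total counts were 23124810, 22798414, 20406245 and 82904358 UMIs.

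Counts summed per class (at least 20 cells in each library) were tested with edgeR 4.0.16 (TMM, filterByExpr, quasi-likelihood, threshold 0.05); strain fits had the strain as the only term. SE is the absolute log2 difference over the square root of F. The script was tested on simulated data. DESeq2 1.42.0 was an alternative, with other scalings, filters, cell sets and left-out libraries.

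Genes were named by rule: paralogs, a set list, and up to 5 members of lowest p per direction and comparison among those called. The members, lists and rule were chosen with earlier results of these data known. Some items the rule would name are not reported here. Same-numbered libraries do not share a source in the labels, and the correlation of their deviations from the strain means was -0.26 over all kept cells and between -0.03 and 0.025 within classes over all genes tested; over the members alone it was 0.29 over all kept cells, 0.20 in iNKT1-like, 0.805 in iNKT2-like and 0.29 in iNKT17-like cells.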

Additional observations from a re-analysis of the deposited data

Results flagged for a closer look

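The strains differed in the step from iNKT2-like to iNKT1-like cells for 44 of 80 members, all lower in BALB/c (background 4.03%; median member -0.21), by an interaction test over 8 class sums with the library as a block (edgeR, log2, BALB/c minus B6), a test added after the data were seen. Of the members named above for that step, 4 were among them: Rps24 (-0.40, SE 0.06, adjusted p = 7.08e-05), Rps21 (-0.24, SE 0.06, adjusted p = 0.00822), Rps27 (-0.21, SE 0.06, adjusted p = 0.0263) and Rps16 (-0.18, SE 0.06, adjusted p = 0.0457). All 4 stood higher in iNKT1-like than in iNKT2-like cells of every library, with the larger step in B6. Rps16 stood at 7373, 7744, 7698 and 6290.4 CPM in iNKT1-like and 7129, 7095, 6143 and 5299 in iNKT2-like cells. Relative to the summed group, Rps24 kept its call and the other 3 did not: Rps21 differed by -0.03, Rps27 by 0.01 and Rps16 by 0.03 (adjusted p = 0.759, 0.969 and 0.662). Both classes were made mostly of different clusters in the strains, as given above, and the iNKT2-like clusters differed in ribosomal protein share. The part of this cluster make-up in the strain difference was not tested.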

How the results depend on the processing

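Mean differences in ribosomal protein share kept their direction under every alternative tried, except the strain differences of iNKT1-like and iNKT17-like cells without B6 2. These are given above, with the B6 1 difference that turned under some alternatives and not under others. The iNKT17-like minus iNKT1-like difference was -0.65 points with classes taken from cell scores. The iNKT0-like minus iNKT2-like difference was -16.3 as a median over cells, -5.87 with cell scores, and -10.8 with predicted doublets kept or with dividing cells taken by a UMI rule. The iNKT0-like strain difference of 2.39 was 1.61 as a median over cells and 6.14 with cell scores, chosen after seeing the data.

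Members called in iNKT1-like against iNKT2-like cells numbered 42, and 21 without a library block. For iNKT17-like against iNKT2-like cells the 71 became 31 without the block, 46 with cell scores and 21 on ribosomal protein totals. For iNKT17-like against iNKT1-like cells the 51 became 19 without the block and 26 with cell scores. On ribosomal protein totals, 44 members were called in iNKT0-like and 38 in dividing cells. On that scale, 6 changes turned sign by construction of the scale: Rpl22 (0.0324) and Rps27 (0.0891) in iNKT17-like cells, Rps27 (0.0546), Rpl22 (0.0415) and Rps27l (0.337) in iNKT0-like cells, and Rpl22 (0.039) in dividing cells. Of the other values for 48 changes of named genes, 534 were on the same side of the threshold and 36 lost the call. With a library left out, 34 to 41 of the 42 and 52 to 71 of the 71 stayed called in the same direction. Within the summed group, the 21 members called in iNKT17-like against iNKT2-like cells became 10 to 16 with a library left out, the lowest without B6 2.

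Strain counts moved most. Over all kept cells 3 members were called, 13 by DESeq2 and 1 on ribosomal protein totals. In iNKT1-like cells 1 was called, 2 on ribosomal protein totals and 6 without a filter on low counts. In iNKT2-like cells 3 were called, 9 with unscaled totals, 5 on ribosomal protein totals, 38 without a filter and 10 by DESeq2. In iNKT17-like cells 1 was called, and 5 without a filter. The replicate block, for a number that does not pair the libraries, gave 1 over all kept cells and 1 in iNKT2-like cells. Crossed pairing of the numbers, chosen after seeing the data, gave 1, 6 and 1 over all kept, iNKT1-like and iNKT2-like cells. Leaving out a library gave 0 to 64 over all kept cells, 0 to 54 in iNKT1-like, 1 to 74 in iNKT2-like and 1 to 26 in iNKT17-like cells. Within the summed group it gave 1 to 60, 1 to 52, 1 to 63 and 1 to 46. TMM over the members alone gave 2, 1 and 8 over all kept, iNKT1-like and iNKT2-like cells within the group.

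With 2 libraries a strain, no exact test over libraries can pass 0.05, and genes under the count filter, among them 3 paralogs, were not tested by class.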

Other observations

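Interferon-responding cells, which express Ifit1 and Isg15 and were mostly of B6 (3, 7, 113 and 564 cells), had ribosomal protein shares of 26.9, 30.3, 30.1 and 25.8%, against 28.7, 29.3, 30.8 and 25.7% in iNKT1-like cells. B cell-like cells (17, 52, 34 and 28), which a sort on CD3 should leave out, had 20.6, 20.5, 20.6 and 21.7%. The unnamed cluster 14, with 90 and 162 cells in BALB/c and few UMIs, had 13.4% and 13.95% there. These were near the 14.2% and 11.4% of double-positive thymocyte-like cells in B6, and its highest marker score was also that of double-positive thymocytes. The unnamed cluster 15 (87, 12, 57 and 88 cells), also of few UMIs, scored highest for the same markers (mean log2 fold 2.40). Its share was far lower, at 1.66% in BALB/c 1, 2.32% in B6 1 and 2.76% in B6 2.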
